A study of Mus musculus with 8 samples.

Results

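The genes that encode receptors for glutamate, GABA, glycine and acetylcholine were examined in secondary neurospheres with and without FoxO3. Members were the genes whose probe sets carry a single symbol of the AMPA (Gria), kainate (Grik), NMDA (Grin), delta (Grid) and metabotropic (Grm) glutamate receptor families, the GABA-A (Gabr) and GABA-B (Gabbr) families, the glycine receptors (Glra, Glrb) and the nicotinic (Chrn) and muscarinic (Chrm) acetylcholine receptors. There were 60 such genes among 18193, with 120 probe sets between them. Of a gene with several probe sets, the one brightest on average across the 8 arrays was used. Another 2 probe sets carry a symbol of these families together with that of another gene and were left aside. A receptor gene measured only by them would be missing here.

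Secondary neurospheres are floating clusters of neural stem and progenitor cells regrown from dissociated spheres. Here they came from the forebrains of mice on the FVB/N background, either wild type (FoxO3+/+) or homozygous for a FoxO3 null mutation (FoxO3-/-). All were collected on day 6 after plating at 50000 cells/ml with the growth factors bFGF and EGF at 20 ng/ml each. Each genotype has 4 Affymetrix arrays, 2 in set 1 and 2 in set 2. The series title speaks of adult neural stem cells, but the labels give neither the age of the animals nor what a set is. They also do not say whether the arrays of a set came from separate cultures or animals, so the p-values reflect array-to-array spread alone, possibly technical.

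As background, ionotropic receptors are ion channels built from several subunits that open when transmitter binds, and metabotropic receptors act through G proteins. AMPA and kainate receptors carry fast excitation, NMDA receptors admit calcium, GABA-A and glycine receptors pass chloride, and nicotinic receptors are cation channels opened by acetylcholine. These genes are best known from neurons. Some are also used by neural progenitors and glia, where GABA and glutamate influence proliferation and differentiation, and oligodendrocyte progenitors receive synaptic input through AMPA and GABA-A receptors.

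Of 3 Foxo3 probe sets, the brighter ones were lower in FoxO3 null arrays and the dimmest was not. The brightest lay between 10.00 and 10.32 in wild type and between 8.86 and 9.14 in FoxO3 null arrays (log2). The next gave -1.07 and the dimmest, with a wild type mean of 5.24, gave 0.33 (limma adjusted p = 0.110). Where these Foxo3 probes lie relative to the mutation is not given in the labels. Markers of neural stem and progenitor cells were above background in wild type in 9 of 10 genes measured, and all 6 oligodendrocyte progenitor and all 8 astrocyte markers were above it. Of 13 neuronal markers 7 were: Map2, Gap43, Elavl3, Elavl4, Rbfox3, Snap25 and Syp. The others, Tubb3, Dcx, Syt1, Nefl, Nefm and Stmn2, were above it on 0 wild type arrays. Microglial and endothelial markers were above background in 1 of 8 and 1 of 6 genes. The sets differed widely: 7963 genes, 43.8% of all, differed between set 2 and set 1 (limma, Benjamini-Hochberg adjustment), so the genotypes were compared over both sets with set in the model.

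Fewer receptor genes than genes in general gave a signal above background in wild type spheres. RMA log2 values carry no detection call, so the limit was the 95th percentile of 76 olfactory, vomeronasal and taste receptor genes on the same array. It lay between 6.34 and 6.56 in wild type. Of the 60 members, 19 were above it on all 4 wild type arrays (31.7%, against 57.6% of all genes), 7 on 1 to 3 arrays and 34 on 0. With the 99th percentile of the same genes as the limit 13 members remained, and with the median of all genes 13. Grik2, Grik3, Grik4, Grin2d, Grm2 and Chrnd were lost with either. Signals of different probe sets are not comparable as amounts, so the values below place each gene against background and not against the others. In sphere tissue, as in any bulk sample, fewer cells that express a gene and less RNA per cell cannot be told apart.

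**Figure D1:**
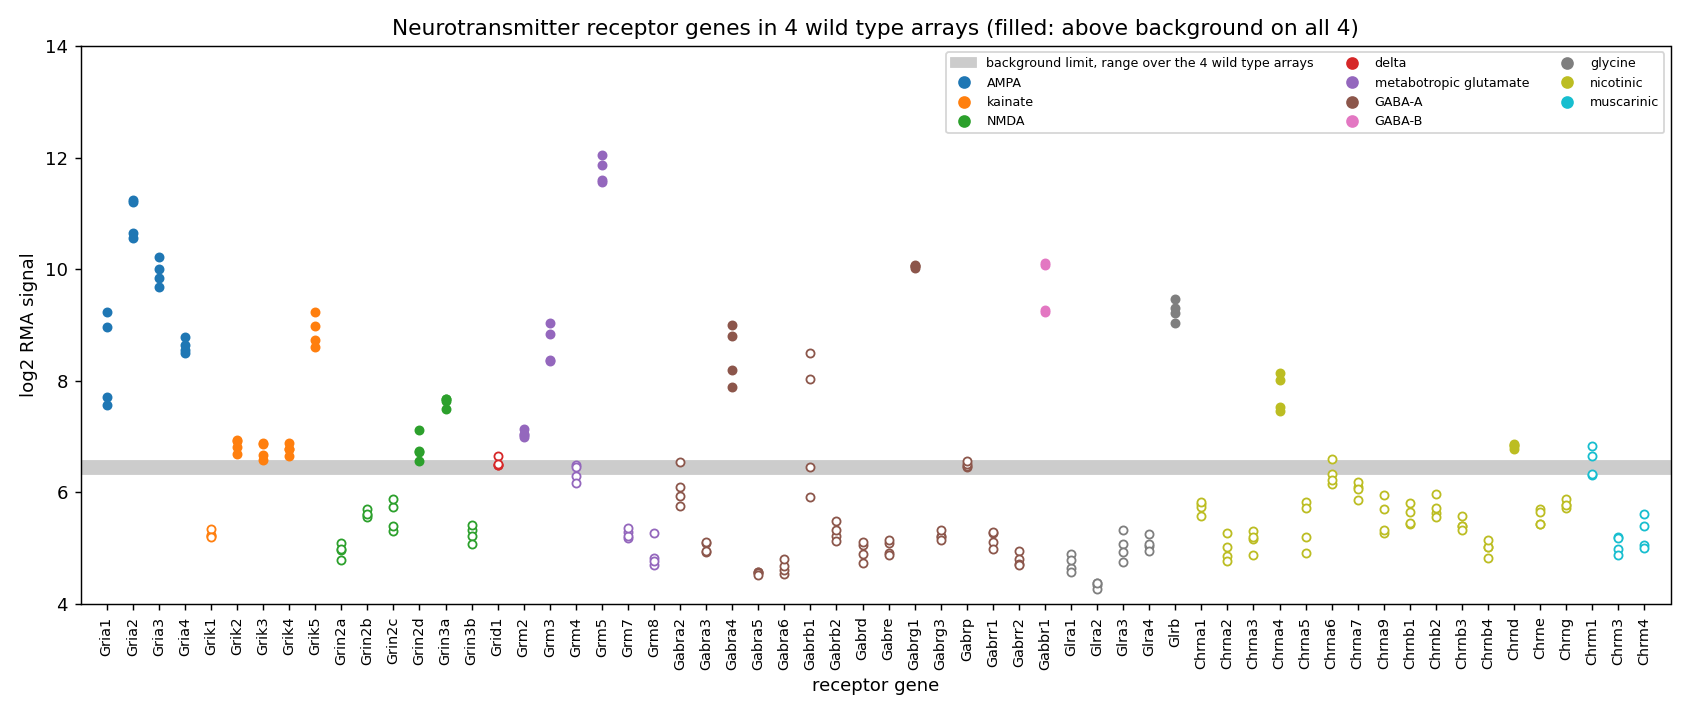
The 60 receptor genes (horizontal axis, coloured by family) and their log2 RMA signal on each of the 4 wild type arrays (vertical axis, 1 point per array), with the background limit as a grey band from 6.34 to 6.56. Filled points mark the 19 genes above the limit on all 4 arrays, among them every AMPA subunit, and the separate pairs of points at Gria1, Gabrb1 and Gabbr1 are the 2 sets.

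Of 22 glutamate receptor genes measured, 13 were above background, where 57.6% of all genes were. These 13 made up most of the 19 members above it. All 4 AMPA receptor subunits were among them. Gria2, whose edited subunit makes the channel impermeable to calcium, averaged 10.92 ± 0.36 in wild type (log2, SD, n = 4 here and for the levels that follow). Gria3 averaged 9.93 ± 0.23, Gria4 8.62 ± 0.12 and Gria1 8.37 ± 0.85. The kainate receptor list had 4 of 5 genes above background. Grik5, a high-affinity subunit, averaged 8.88 ± 0.28, and Grik2, Grik3 and Grik4 lay between 6.75 and 6.84, close to the limit. NMDA receptor subunits were above the limit in 2 of 6 genes, Grin3a at 7.62 ± 0.09 and, close to the limit, Grin2d at 6.78 ± 0.24. Grin2a and Grin2b, the subunits typical of forebrain neurons, averaged 4.96 and 5.62 and were above background on 0 wild type arrays. Of the metabotropic receptors, Grm5, which couples to calcium release, averaged 11.77 ± 0.23, and Grm3, which lowers cyclic AMP and is known from glia as well as neurons, 8.65 ± 0.34. Grm2 lay at 7.05 ± 0.06, and Grm4, Grm7, Grm8 and the delta receptor gene Grid1 were not above background on all 4 arrays.

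Inhibitory receptors were represented by few subunits. Of 14 GABA-A subunit genes, Gabrg1 (10.05 ± 0.02) and Gabra4 (8.47 ± 0.52) were above background on all 4 wild type arrays. Gabrb1 was above it on 3, from 5.92 to 8.49. Gabbr1, the GABA-binding subunit of the GABA-B receptor, averaged 9.67 ± 0.49. Of the 5 glycine receptor genes only Glrb, the beta subunit that anchors the receptor to gephyrin, was above background, at 9.25 ± 0.18, and Glra1, Glra2, Glra3 and Glra4 were above it on 0 arrays. Acetylcholine receptors had 2 of 18 genes above background. Chrna4, a subunit of the main brain nicotinic receptor, averaged 7.78 ± 0.34. Chrnd, a subunit of the muscle receptor, averaged 6.83 ± 0.04, close to the limit. Chrnb2, the usual partner of Chrna4, was above background on 0 wild type arrays, as were Chrm3 and Chrm4, while Chrm1 was on 2.

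Against the wild type, 2 of the 60 receptor genes changed in FoxO3 null spheres: Gabbr1 fell and Gria4 rose. Over both sets together this is 3.33% of the members, where 1.60% of all 18193 genes passed (limma with set as a term, adjusted p under 0.05 over all genes; 0.429% higher and 1.17% lower). The median log2 fold change, FoxO3 null minus wild type, was -0.02 for the 60 members and 0.01 for all genes, with 32 members negative and 28 positive. Both were among the 19 genes above background, where 2.45% of all genes above it passed. At an unadjusted p under 0.05 stood 5 members, 8.33%, against 15.5% of all genes.

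Gabbr1, on chromosome 17 from 37045966 to 37074305 (GRCm38.p6), measured 9.23 and 9.27 in wild type arrays of set 1 and 10.12 and 10.08 in those of set 2. FoxO3 null arrays measured 9.0016 and 8.92 in set 1 and 9.60 and 9.52 in set 2. Both FoxO3 null arrays thus lay below both wild type arrays within each set, while over the sets the groups overlapped. Its log2 fold change was -0.41 ± 0.06 (SE, limma adjusted p = 0.0105), and the null signal was 75.2% of wild type. The call held without any 1 array, with adjusted p between 0.0152 and 0.0485. It was lost with no set term (adjusted p = 1.00), when replicate arrays were averaged first (0.262), without moderation of the variance (0.139) and with the mean of 3 Y-linked genes as a covariate, where the change was -0.30 (0.594). Few genes of any kind passed in these fits: 3 of 18193 with no set term, 0 with averaged arrays, 0 without moderation and 8 with the covariate.

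Gria4, which encodes the AMPA receptor subunit GluA4, lies on chromosome 9 from 4417893 to 4796234. Wild type arrays measured 8.49 and 8.56 in set 1 and 8.78 and 8.64 in set 2. FoxO3 null arrays measured 8.90 and 9.02 in set 1 and 8.93 and 8.97 in set 2. Each FoxO3 null array was above each wild type array of either set. The log2 fold change was 0.34 ± 0.06 (SE, limma adjusted p = 0.0261), or 1.26-fold. The Gria4 call was lost without wild type array 1_1 (adjusted p = 0.0962), 1_2 (0.0633) or 2_2 (0.0713) and without FoxO3 null array 1_1 (0.0640), 1_2 (0.0737) or 2_2 (0.0660). With the Y-linked covariate the change was 0.52 (adjusted p = 0.142), and with the probe set of largest variance 0.16 (0.488).

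**Figure D2:**
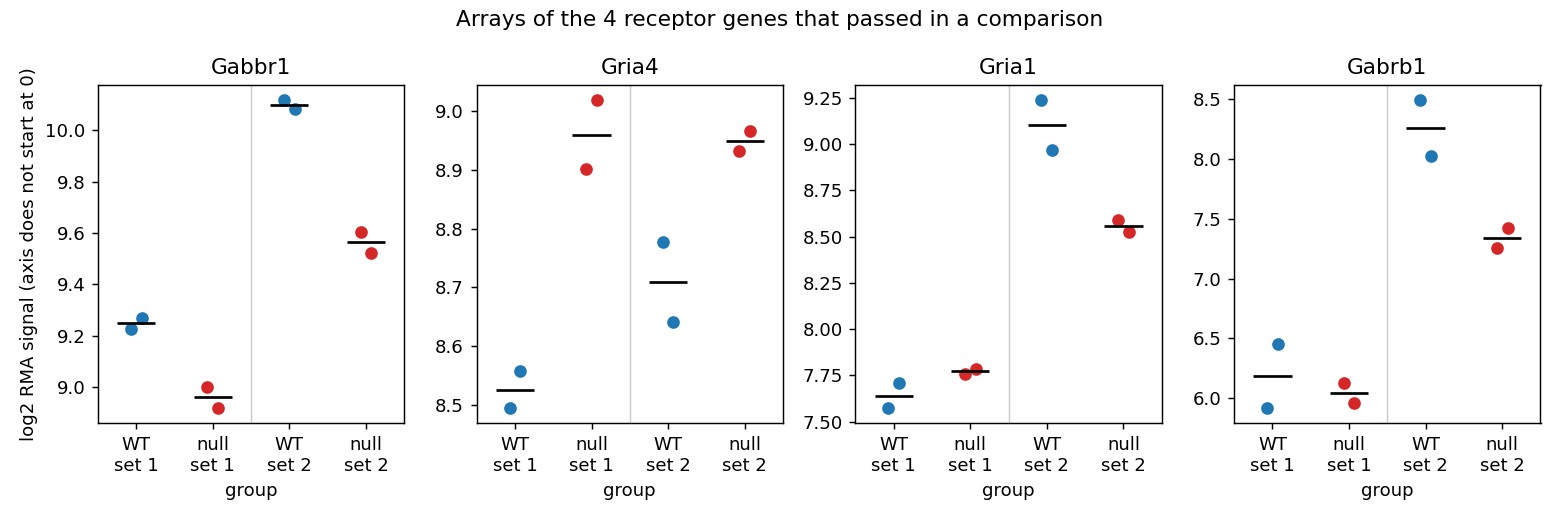
Log2 RMA signal (vertical axes, each with its own range and not starting at 0) of the 4 receptor genes that passed in at least 1 comparison, by genotype and set, with 1 point per array (2 per group) and the mean as a bar. Gabbr1 is lower and Gria4 higher in both FoxO3 null arrays of each set, whereas Gria1 is higher in set 1 and lower in set 2, and Gabrb1 overlaps in set 1 and is lower in set 2.

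FoxO3 is a DNA-binding factor, so the stretches just before the start sites of the 2 changed genes are shown. They are the 250 bases upstream of the RefSeq start in GRCm38.p6, 5′ to 3′ on the strand of the gene, all in lower case because no capitals were needed to mark a match. The Gabbr1 stretch is chr17:37045716-37045965 on the plus strand and the Gria4 stretch is chr9:4796235-4796484 on the minus strand.
Gabbr1: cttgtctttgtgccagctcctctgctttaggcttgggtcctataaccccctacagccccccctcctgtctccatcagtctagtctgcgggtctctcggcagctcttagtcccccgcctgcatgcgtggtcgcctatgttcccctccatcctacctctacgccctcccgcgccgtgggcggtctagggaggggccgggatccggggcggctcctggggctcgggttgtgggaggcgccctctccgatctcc
Gria4: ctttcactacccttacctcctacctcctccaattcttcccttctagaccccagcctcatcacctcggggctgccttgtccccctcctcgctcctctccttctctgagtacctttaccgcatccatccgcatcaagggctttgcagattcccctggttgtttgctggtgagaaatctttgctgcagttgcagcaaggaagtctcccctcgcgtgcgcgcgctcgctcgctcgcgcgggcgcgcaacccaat

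The FoxO core letters GTAAACA, searched on both strands, occurred 0 times in either stretch, which says only that these letters are not in this window. They occurred in 3.17% of the 32851 RefSeq promoter stretches of the same length. Of the members, 44 had such stretches, 52 in all, and 1 of the 52 held them.

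Other probe sets bore unequally on the calls. Gabbr1 has 4 probe sets. The representative one passed when p-values were adjusted over 45037 probe sets (limma adjusted p = 0.0202), and so did the next brightest, which fell by 0.42 ± 0.08 (adjusted p = 0.0425). The other two gave -0.25 (adjusted p = 0.359), with a signal above background on 1 wild type array, and 0.05, above it on 0. For Gria4 the representative probe set passed likewise (adjusted p = 0.0434), and both others, above background on 0 wild type arrays, gave 0.16. Among the members, 9 had at least 2 probe sets above background on all 4 wild type arrays. In 6 of the 9 the fold changes of those probe sets had 1 sign, and in Gria2, Grin3a and Grm5 they did not.

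**Figure D3:**
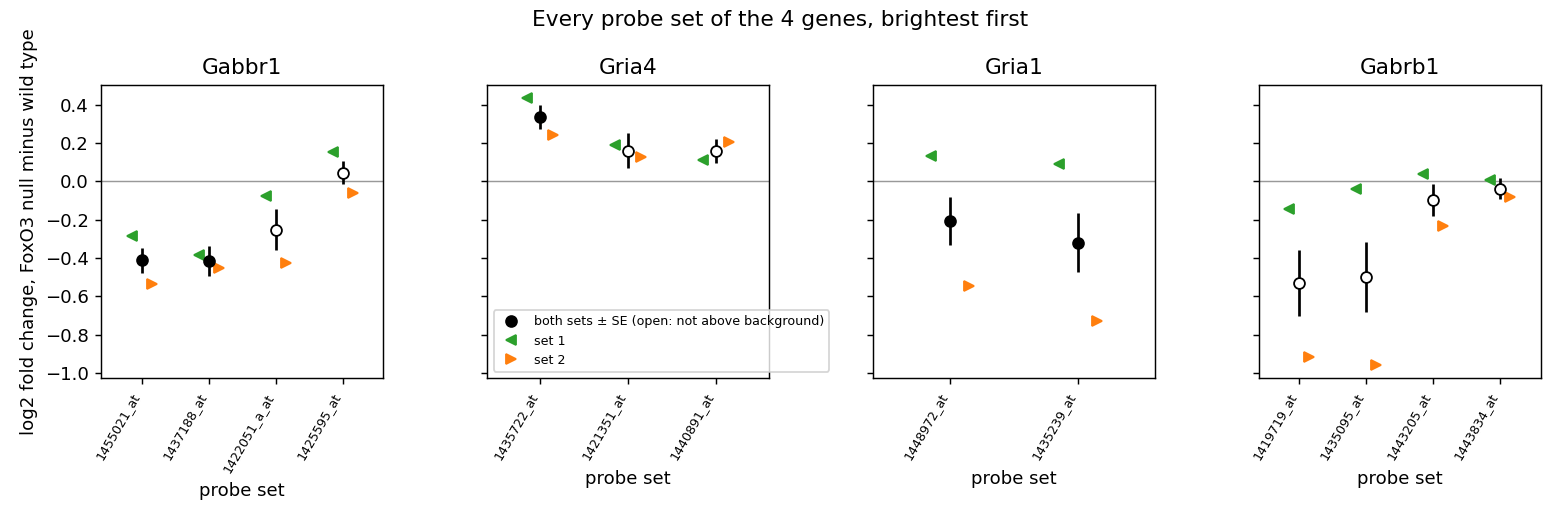
Log2 fold change, FoxO3 null minus wild type (vertical axis), of every probe set of Gabbr1, Gria4, Gria1 and Gabrb1, brightest first from the left. Black points with SE bars give both sets together, filled where the probe set is above background on all 4 wild type arrays, and triangles give set 1 (pointing left) and set 2 (pointing right). Both filled probe sets of Gabbr1 are near -0.41, and both of Gria1 are negative in set 2 and positive in set 1.

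The 17 genes above background that did not pass over both sets, Gria1, Gria2 and Gria3 among them, had log2 fold changes from -0.24 for Glrb to 0.19 for Gabrg1, and their 95% intervals lay between -0.49 and 0.34. Gabrb1, above background on 3 wild type arrays, lay outside that range at -0.53 ± 0.17 (SE, limma adjusted p = 0.177). Gabrg1 measured 10.02, 10.06, 10.06 and 10.07 in wild type and 10.11, 10.28, 10.32 and 10.27 in FoxO3 null arrays. Its groups did not overlap, but at 0.19 ± 0.05 (SE) it did not pass (limma adjusted p = 0.125). Glrb gave -0.24 ± 0.11 (adjusted p = 0.356), with -0.42 in set 1 and -0.05 in set 2. Grm5 gave -0.14 ± 0.06 (adjusted p = 0.343) and Grm3 0.09 ± 0.10. Of the kainate genes Grik4 gave -0.10 ± 0.09 and Grik5 -0.09 ± 0.07, and of the NMDA genes Grin2d 0.09 ± 0.11 and Grin3a -0.0099 ± 0.07. Grid1 gave 0.0048 ± 0.06, and its sign turned under quantile normalization and under centring. The nicotinic genes Chrna4 and Chrnd gave -0.12 ± 0.07 and 0.03 ± 0.06, and Chrm1, the muscarinic gene with the smallest p, 0.13 ± 0.08. Gabra4 gave -0.13 ± 0.12.

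**Figure D4:**
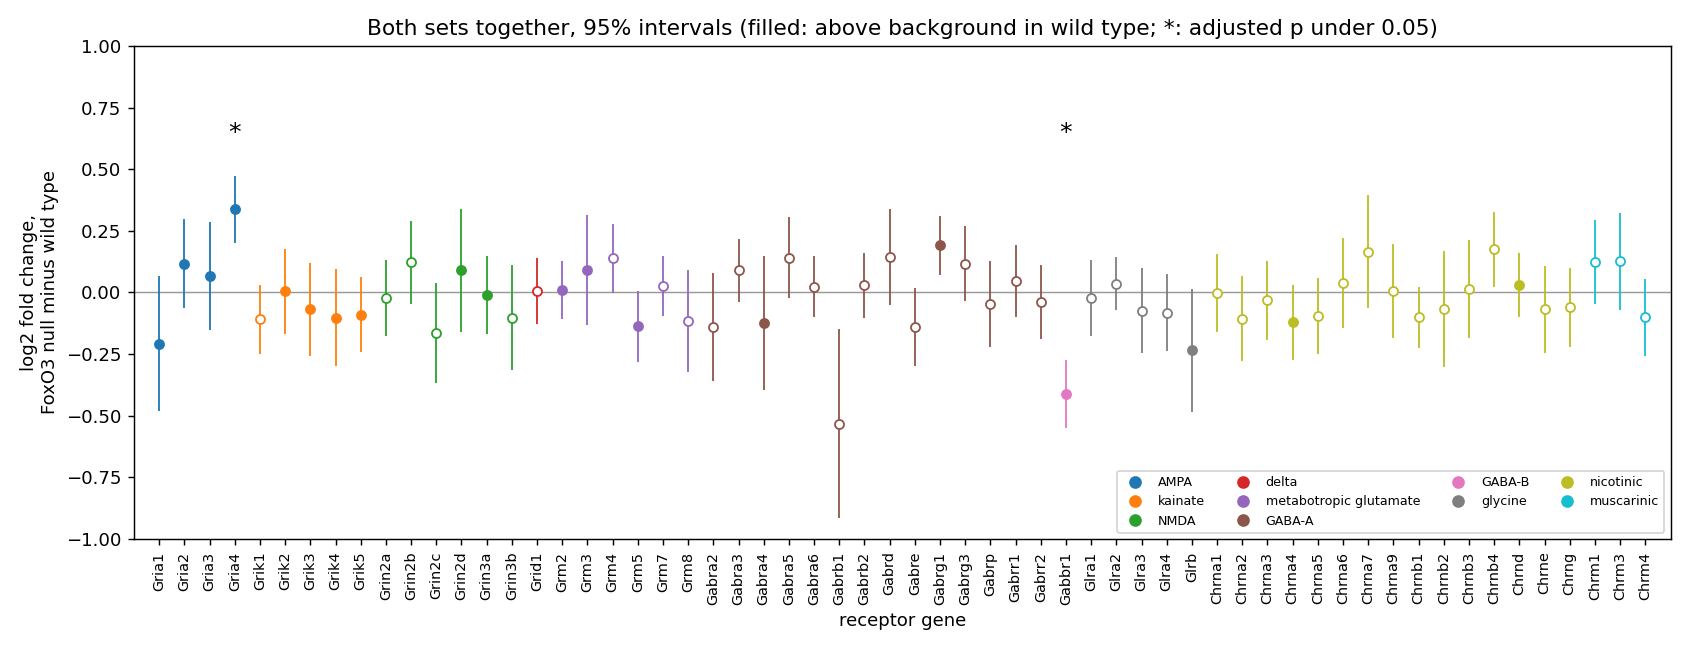
Log2 fold change, FoxO3 null minus wild type over both sets (vertical axis), with 95% intervals from limma, for the 60 receptor genes coloured by family (horizontal axis). Asterisks mark Gria4 and Gabbr1, the 2 genes that passed, and Gabrb1, at -0.53, has the widest interval.

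Taken by set, 1 receptor gene passed in set 1 and 3 in set 2. In set 1 Gria4 alone passed (0.43 ± 0.08 (SE), limma adjusted p = 0.0418), 1.67% of members against 0.742% of all genes (0.170% higher and 0.572% lower). In set 2 Gria4 gave 0.24 ± 0.08 (adjusted p = 0.198), and the difference between its effects in the sets did not pass (-0.19, adjusted p = 0.689). The set 1 call was lost without any 1 of the 4 arrays of that set (adjusted p from 0.0934 to 0.335) or when set 1 was fitted alone (0.1003). In set 2 Gabbr1, Gria1 and Gabrb1 passed, all lower, 5.00% of members against 1.93% of all genes (0.715% higher and 1.21% lower). Gabbr1 fell by 0.54 ± 0.07 in set 2 (adjusted p = 0.00553; 0.0591 without wild type array 2_1), while in set 1 it gave -0.29 ± 0.07 (adjusted p = 0.133).

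Gria1, which encodes the AMPA receptor subunit GluA1, lies on chromosome 11 from 57011571 to 57330244. In set 2 it measured 9.24 and 8.97 in wild type and 8.59 and 8.52 in FoxO3 null arrays, a fall of 0.55 ± 0.10 (SE, limma adjusted p = 0.0212). In set 1 it measured 7.57 and 7.71 in wild type and 7.76 and 7.78 in FoxO3 null arrays, so the order of the genotypes was the opposite (0.13, adjusted p = 0.695). The difference between the sets' effects, -0.68 ± 0.14, did not pass over all genes (adjusted p = 0.130). Its other probe set gave 0.09 in set 1 and -0.73 in set 2. Without wild type array 2_1 the fall in set 2 was 0.41 (adjusted p = 0.142), and it missed the threshold without FoxO3 null array 2_1 (0.108) or 2_2 (0.107) and when set 2 was fitted alone (0.0734).

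Gabrb1, a beta subunit of the GABA-A receptor on chromosome 5 from 71657921 to 72149572, had the largest estimate of the members. Wild type arrays measured 5.92 and 6.45 in set 1 and 8.49 and 8.02 in set 2. FoxO3 null arrays measured 6.12 and 5.96 in set 1 and 7.25 and 7.42 in set 2. The genotypes overlapped near background in set 1, and in set 2 both FoxO3 null arrays were lower, by 0.92 ± 0.18 (SE, limma adjusted p = 0.0331), to 52.9% of wild type. It was lost without wild type array 2_1 (0.211) or either FoxO3 null array of that set (0.223 and 0.0964). The difference between the sets' effects, -0.77 ± 0.25, did not pass (adjusted p = 0.371). Gabra2, Gabra4 and Gabrg1 lie on chromosome 5 as well. In set 2 Gabra2 gave -0.23 ± 0.14 (limma adjusted p = 0.495), Gabra4 gave -0.39 ± 0.13 (adjusted p = 0.200) and Gabrg1 0.23 ± 0.08 (adjusted p = 0.211).

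Over the members as a whole, 34 of 60 had the same sign of change in both sets (56.7%, against 57.3% of all genes), and 7 of the 19 above background did (36.8%, against 62.1% of all genes above it). In 5 members (8.33%, against 14.3% of all genes, 7.77% higher and 6.54% lower) the genotypes did not overlap in either set and differed the same way: Gria4, Grm5, Gabrg1, Gabbr1 and Chrnb1. In 4 (6.67%, against 5.84% of all genes) they did not overlap and differed in opposite ways: Gria1, Gria2, Chrnd and Chrng. Of the genes in these counts, Chrnb1 and Chrng were above background on 0 arrays of either genotype. Grm5 fell by its representative probe set, while its other probe set rose in both sets (0.14 in set 1 and 0.11 in set 2). The interaction of genotype and set passed in 0 of 60 members (limma), against 0.187% of all genes (0.0824% with a higher and 0.104% with a lower effect in set 2). At an unadjusted p under 0.05 stood 10 members, against 8.70% of all genes.

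**Figure D5:**
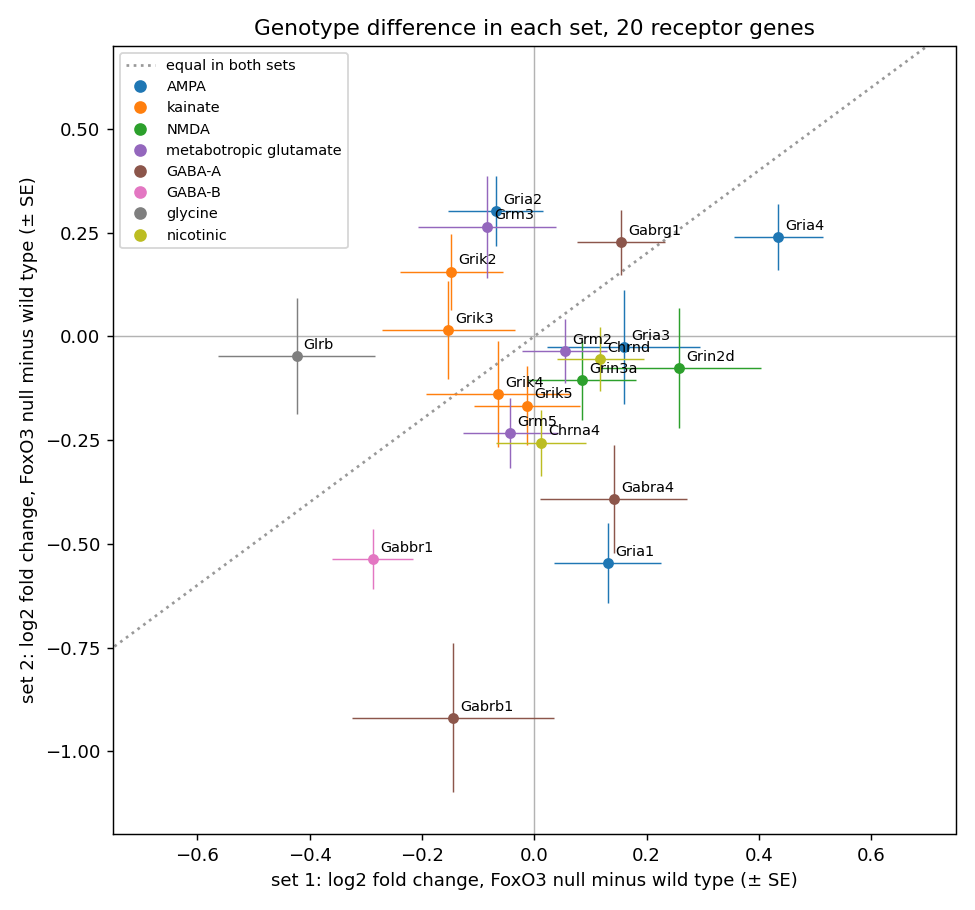
Log2 fold change, FoxO3 null minus wild type, in set 1 (horizontal axis) and set 2 (vertical axis) with SE bars, for the 19 receptor genes above background in wild type and Gabrb1, coloured by family. Gria4 and Gabbr1 lie on the same side of 0 in both sets, and Gria1 (0.13 and -0.55) does not.

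The receptors also differed between the sets. By the set term of the same fit 23 of 60 members differed between set 2 and set 1 (38.3%, against 43.8% of all genes), 13 higher and 10 lower in set 2. The genes lower in FoxO3 null spheres of set 2 were among those higher in set 2 overall: Gabrb1 by 1.69, Gria1 by 1.12 and Gabbr1 by 0.73 (limma adjusted p = 5.05e-05, 7.98e-05 and 1.81e-05). Gria4 did not pass (0.09, adjusted p = 0.283). Marker lists moved with the sets and the genotypes as well. The mean of 5 mature oligodendrocyte markers lay between 8.52 and 8.56 in wild type and 9.02 and 9.14 in FoxO3 null arrays of set 1, and between 10.61 and 10.99 in set 2. The mean of 6 oligodendrocyte progenitor markers was lower in FoxO3 null arrays of both sets: from 9.74 to 9.79 in wild type against 9.35 to 9.48 in set 1, and from 10.34 to 10.36 against 9.95 to 10.02 in set 2. Of these 6 markers 4 fell. The mean of 8 astrocyte markers was lower in FoxO3 null arrays as well, from 10.31 to 10.37 against 10.22 to 10.25 in set 1 and from 10.67 to 10.78 against 10.47 to 10.63 in set 2. So was that of 10 neural stem and progenitor markers, from 10.82 to 10.89 in wild type against 10.76 to 10.79, with no overlap. Single genes of both lists went either way over both sets. Of the astrocyte markers 5 were negative and 3 positive, and of the progenitor markers 6 were negative and 4 positive. In each list 1 gene passed: Slc1a2 fell by 0.84 and Nes rose by 0.29 (limma adjusted p = 0.000279 and 0.0332). The means of the microglial, endothelial, mesenchymal and ependymal lists overlapped between the genotypes in set 2. In set 1 the endothelial and mesenchymal means overlapped too, but the microglial and ependymal means were higher in FoxO3 null arrays. They lay from 5.28 to 5.34 in wild type against 5.35 to 5.38 (microglial) and from 6.34 to 6.35 against 6.37 to 6.43 (ependymal). Both means were under the background limit of those arrays. Of these lists, 7 of 8 microglial and 3 of 5 ependymal genes were above background on 0 wild type arrays. The mean of the 13 neuronal markers was 7.13 in both wild type arrays of set 1 against 7.02 and 7.04, and overlapped in set 2 (7.31 to 7.35 against 7.30 to 7.39). Y-linked genes averaged from 7.66 to 8.35 in wild type and 6.88 to 8.09 in FoxO3 null arrays, with a correlation with genotype within sets of -0.861, and the actin 3′ minus 5′ difference, a sign of RNA quality, from 0.36 to 0.54 and 0.33 to 0.49. The part of the marker lists and of RNA quality in the receptor results was not tested.

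Genes that work with these receptors were read from the same fit, in 4 lists of which 85 genes were measured. Of the 85, 5 passed (5.88%, against 1.60% of all genes), 1 higher and 4 lower. The lists were drawn up with earlier results of these data known, so the 2 shares are not an independent comparison. Among 19 genes for transmitter synthesis, packaging and uptake 2 fell and 1 rose. Gad1, which makes GABA, measured 9.54, 9.30, 8.99 and 8.63 in wild type and 8.37, 8.37, 7.999 and 8.05 in FoxO3 null arrays (-0.91 ± 0.09 (SE), limma adjusted p = 0.00150). Slc1a2, the glial glutamate transporter, fell by 0.84 ± 0.05 (adjusted p = 0.000279). Bche, butyrylcholinesterase, rose by 0.39 ± 0.06 (adjusted p = 0.0150). The median of this list was -0.02.

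Among 24 measured receptors for monoamines, purines and other transmitters outside the families above, 2 fell and 0 rose. Hrh1, the histamine H1 receptor, fell by 0.53 ± 0.08 (SE, limma adjusted p = 0.0104), and its highest FoxO3 null array, at 8.95, was under its lowest wild type array, at 9.22. Htr2b, a serotonin receptor, fell by 0.33 ± 0.06 (adjusted p = 0.0215), but it was above background on 0 wild type arrays. The other lists had no gene passing over both sets. Of 19 auxiliary subunits and related proteins the smallest p-values were those of Sorcs2 (0.41 ± 0.10, adjusted p = 0.0683) and the AMPA receptor auxiliary subunit Cacng8 (0.30 ± 0.08, adjusted p = 0.0951). Of 23 postsynaptic scaffold genes they were those of Dlgap1 (-0.37 ± 0.08, adjusted p = 0.0528) and Nlgn2 (-0.23 ± 0.06, adjusted p = 0.101). List medians were 0.03 for the auxiliary subunits, -0.02 for the scaffolds and 0.02 for the other receptors, against 0.01 for all genes.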

How the data were processed

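The authors deposited 1 table of log2 expression values from 8 Affymetrix Mouse430_2 arrays, computed by RMA according to the submitters' processing notes. Its version, and whether all arrays were processed together, are not given in the sources used here. RMA equalises the arrays' distributions and compresses differences of dim probe sets, so every change is relative to other genes. Of 45101 probe sets 64 controls were left out; 34945 had 1 symbol in the platform annotation, 932 several and 9160 none. Symbols were updated through Entrez IDs (0 changed), and positions are those of GRCm38.p6.

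Gene values were fitted with limma 3.58.1 in R 4.3.3 (lmFit, eBayes, Benjamini-Hochberg over 18193 genes, threshold 0.05, two-sided), with set as a term; per-set effects and their difference came from 1 fit of 4 means of genotype and set. On simulated arrays of 18193 genes, 87 of 100 changes of 0.5 and 100 of 100 changes of 1 (log2) were recovered over both sets. In set 2 the counts were 59 and 99, and for the difference between sets 4 and 68. Noise was drawn independently for each array. No changes as small as those of Gabbr1 (-0.41) and Gria4 (0.34) over both sets were simulated.

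Members, lists and tests were chosen with earlier results of these data known. Genes named were every member that passed in any comparison, up to 2 per family with the smallest p among those above background (or 1 where none was), every member above background with its level, and per list up to 6 genes that passed or the 2 with the smallest p. Others, among them Gria2, Chrnb1, Chrng and the members named as not above background, were named after their values were seen. Alternatives covered the set term, blocks, a covariate, normalization, filters, the variance model, the probe set per gene and each array in turn.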

Additional observations from a re-analysis of the deposited data

Results flagged for a closer look

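The level of Grin3a in wild type and that of Grid1 in wild type each had 1 array far from the other 3. Grin3a measured 7.49 on array 1_1, below the others, and Grid1 6.65 on the highest array. Of 44 groups of 4 arrays examined (22 members in 2 genotypes), these 2 passed Dixon's limit. For 4 values of 1 normal distribution, chance alone marks about 1 group in 20. Each group here joined arrays of 2 sets, so that rate need not hold.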

How the results depend on the processing

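The 2 calls over both sets were the same genes under quantile normalization, centring, both filters on dim genes, robust variance, a threshold of 0.1 and adjustment over all probe sets. Gabrg1 was added, giving 3, under a variance trend or a random block of set and genotype. In these fits 3.41% and 4.38% of all genes passed, against 1.60%, and the correlation within blocks was estimated at -0.23. The number was 0 with no set term, with the mean of each set and genotype, with the Y-linked covariate and with no moderation. In these 4 fits 3, 0, 8 and 0 of 18193 genes passed, against 291, and at an unadjusted p under 0.05 in limma stood 2, 6, 8 and 3 members, against 5.02%, 9.92%, 7.5% and 13.9% of all genes. It was 1, Gabbr1, with the probe set of largest variance (1.56% of all genes). It was also 1 with the replicate block (0.731% of all genes), where Gria4 gave limma adjusted p = 0.0761. The replicate numbers do not pair the arrays: differences of array 1 and 2 correlated between genotypes at 0.12 in set 1 and -0.11 in set 2. Without 1 array the number ranged from 1 to 2 over both sets, 0 to 0 in set 1, 0 to 3 in set 2 and 0 to 0 for the interaction. In set 1 a variance trend and the filter on the median level gave 2, Gabbr1 and Gria4 (2.22% and 3.02% of all genes, against 0.742%). Set 1 alone gave 0 (0.346%), with 7 members at an unadjusted p under 0.05 against 10.7% of all genes. A variance trend gave 6 in set 2 (4.37% of all genes, against 1.93%), and 1, Gria1, for the interaction (0.863%, against 0.187%). The 5 calls in the lists of related genes became 0 with no set term, the Y-linked covariate or the mean of each set and genotype. The causes were not tested.

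Signs over both sets turned in genes that had not passed there. With the Y-linked covariate Gria1 was 0.25, Gabra4 0.35, Grin3a 0.18, Grm5 0.0843, Grik4 0.0697, Chrna4 0.0452, Grik5 0.0040 and Grm3 -0.11. With the probe set of largest variance Grin2d was -0.0352, Grin3a 0.14, Grid1 -0.10 and Grm5 0.13. Grid1 was -0.0035 after quantile normalization and -0.00099 after centring. Without 1 array, Grin3a ranged from -0.0765 to 0.0312, Grid1 from -0.0374 to 0.0509, Grm3 from -0.0055 to 0.18 and Chrnd from -0.0148 to 0.0612. Few arrays limit the precision. Some of these genes had wild type means near the background limit (Grid1 6.54, Grin2d 6.78), and others lay well above it (Grm5 11.77, Grik5 8.88, Gria1 8.37). Why the signs turned was not tested.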
